A study of Sus scrofa with 12 samples.

Results

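A group of 9 genes of transforming growth factor β (TGF-β) signaling was followed through the endothelial differentiation of porcine induced pluripotent stem (iPS) cells. They are the ligands TGFB1, TGFB2 and TGFB3, the type I receptors TGFBR1 and ACVRL1, the type II receptor TGFBR2, the co-receptors TGFBR3 and ENG, and the latent ligand binding protein LTBP1. All 9 symbols were found, each at 1 identifier, among the 19681 Ensembl pig genes measured in every library, of which 13998 had a symbol. The libraries come from 4 groups with 3 biological replicates (A, B and C) each. IEC2, IEC4 and IEC12 are the cells at 2, 4 and 12 days of that induction, and AOC is an established porcine endothelial cell line that did not go through the induction. All IEC groups share the first step, in which the WNT pathway activator CHIR99021 was given in a medium without FGF2 and LIF until day 2. IEC4 and IEC12 also received BMP4, FGF2 and VEGF from day 2 to day 4, and IEC12 was then kept in the endothelial growth medium EGM-2 with VEGF. IEC12 was harvested without sorting, so it holds every cell type of the day 12 culture. No TGF-β inhibitor is named for any of these libraries.

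TGF-β ligands are secreted in a latent form, bound through LTBP proteins to the extracellular matrix, and have to be released before they act. The active dimer binds TGFBR2, which recruits and phosphorylates TGFBR1 (ALK5), and TGFBR1 in turn activates SMAD2 and SMAD3. Endothelial cells also use the type I receptor ACVRL1 (ALK1), which signals through SMAD1, SMAD5 and SMAD9 with the help of endoglin (ENG), while betaglycan (TGFBR3) presents ligand, above all the product of TGFB2, to TGFBR2.

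Values are FPKM, sequenced fragments divided by transcript length and by the mapped fragments of the library, so levels of different genes are compared per length. The transcript models behind these lengths were not checked, which touches the order of different genes and the low FPKM of TGFB1 and ENG in particular. In the libraries, FPKM summed to between 335976.4 and 457193.7, and 8357 to 10467 genes reached an FPKM of 1. Expression in replicates of a group correlated with r from 0.968 to 0.993 over genes. The number of reads is unknown. Depth relative to the other libraries, estimated from the steps of low FPKM values, was 0.894 to 1.23 in 11 libraries, while IEC12 replicate A could be read as 0.668 or 1.34. The labelled cell types were checked against marker genes. Of 16 endothelial markers 12 were found, and their FPKM summed to 301 to 425 in AOC. The same sum was 3.44 to 6.14 in IEC2, lay between 2.21 and 3.39 in IEC4 and was 0.58 to 0.672 in IEC12. CDH5 (VE-cadherin) was at 103 to 137 in AOC and listed at 0 in all 9 IEC libraries, and PECAM1 (CD31) was at 91.7 to 131 in AOC and at most 0.554 in the IEC libraries. KDR, the VEGF receptor that mesodermal progenitors also carry, differed from them, with 2.45, 3.99 and 2.42 FPKM in IEC2, above the 1.32, 1.31 and 1.46 FPKM of AOC. At day 12, KDR was at most 0.0374 FPKM, so these markers were listed at 0 or lay near 0 in the cells labelled as 12 days of endothelial induction. The 6 epithelial markers found, led by KRT8 and CLDN4, summed to 329 to 895 in IEC4 against 22.7 to 31.3 in IEC2, 5.17 to 16.5 in IEC12 and at most 0.0993 in AOC. KRT8 alone was at 300, 435 and 748 FPKM in the IEC4 libraries. ESRP1 of the same list did not rise with it, with means of 10.1 FPKM in IEC2 and 8.37 in IEC4. The 10 mesenchymal and smooth muscle markers, led by COL3A1 and COL1A2, summed to 80.4 to 112 in IEC2, between 50.2 and 63.4 in IEC4, 61.5 to 79.6 in IEC12 and 22.9 to 36.4 in AOC. COL3A1 carried most of the sum in the IEC groups, while COL1A2 was at most 0.115 FPKM in IEC2 and averaged 14.0 in AOC. The mesoderm markers (7 found, led by HAND1 and PDGFRA) summed to 3.78 to 5.21, 7.49 to 10.7, 1.97 to 2.89 and 0.419 to 0.511 in IEC2, IEC4, IEC12 and AOC. These 2 leading markers moved in opposite directions from IEC2 to IEC4. HAND1 was listed at 0 in all IEC2 libraries and averaged 7.65 FPKM in IEC4, while PDGFRA averaged 4.24 in IEC2 and 0.586 in IEC4. The 5 blood markers, led by CD34 and SPI1, summed to 9.35 to 12.0, 5.83 to 7.02, 4.17 to 6.17 and 24.6 to 40.0. CD34 carried most of the sum in AOC, with a mean of 27.8 FPKM. PTPRC of the same list went the other way, listed at 0 in all AOC libraries, with means of 2.78 in IEC4 and 1.37 in IEC12. Of 8 pluripotency markers only LIN28A and NANOG were found, with sums of at most 0.155 in IEC2, between 3.3 and 6.39 in IEC4, 0.248 to 1.52 in IEC12 and at most 0.0462 in AOC. LIN28A carried the sum in IEC4, with a mean of 4.27 FPKM, and was at most 0.647 FPKM in IEC12. NANOG lay the other way, with means of 0.350 FPKM in IEC4 and 0.732 in IEC12, though the libraries overlapped.

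Among the ligands, TGFB2 had the highest FPKM in 12 of 12 libraries. Its gene lies on chromosome 10 from 8306136 to 8435307 (Sscrofa11.1, RefSeq, as for all positions given here). In IEC2, TGFB2 was at 1.79, 1.44 and 1.71 FPKM in replicates A, B and C. At day 4 it was at 5.10, 9.94 and 21.0 FPKM, above every IEC2 library, with the highest value in replicate C. IEC12 returned to 0.680, 1.08 and 1.58 FPKM, which overlapped IEC2 and lay below every IEC4 library. AOC held 14.5, 12.6 and 12.6 FPKM, within the wide range of IEC4. The order of mean levels was thus AOC (13.2 ± 1.10, SD, n = 3), IEC4 (12.0 ± 8.14), IEC2 (1.65 ± 0.185) and IEC12 (1.11 ± 0.451), where AOC overlapped IEC4 and IEC2 overlapped IEC12.

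TGFB2 rose from IEC2 to IEC4 by a log2 fold change of 2.11 ± 0.393 (SE; limma on log2(FPKM + 1), Benjamini-Hochberg adjusted p = 0.00269 over all genes tested). It fell by 2.45 ± 0.393 on the log2 scale from IEC4 to IEC12 (adjusted p = 0.00113, limma). Between IEC12 and IEC2 the log2 difference was -0.34 ± 0.393, which missed the threshold (adjusted p = 0.508, limma). Because 1 is added to each FPKM, these fold changes understate the change of genes with low values. Without IEC4 replicate C the rise to day 4 was 1.63 (adjusted p = 0.00402, limma) and the later decrease was -1.97 (adjusted p = 0.00172, limma). In the IEC4 libraries the epithelial markers summed to 329, 478 and 895 FPKM, mostly from KRT8, in the same order as TGFB2. The epithelial cadherin CDH1 was at 7.51, 6.54 and 42.8 FPKM. The part of these markers in the TGFB2 level was not tested. In bulk RNA, a change in the number of cells that express a gene and a change in RNA per cell cannot be told apart.

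TGFB1 (chromosome 6, 49332169 to 49348642), the most widely studied of the ligands, was listed at about 1 FPKM or less in every library. It was at 0.547, 0.400 and 0.406 FPKM in IEC2 and at 0.810, 0.741 and 1.03 FPKM in IEC4. IEC12 had 0.171, 0.250 and 0.445 FPKM and AOC had 0.314, 0.257 and 0.239 FPKM. Every IEC4 library was above every library of the other groups, while IEC2, IEC12 and AOC overlapped as neighbors in the order of means. TGFB1 did not reach the filter for testing, which asked for 1 FPKM or more in no fewer than 3 libraries. In a fit without that filter, TGFB1 had a log2 difference of 0.36 for IEC4 against IEC2 (adjusted p = 0.0507, limma), -0.53 for IEC12 against IEC4 (adjusted p = 0.0102) and -0.55 for AOC against IEC4 (adjusted p = 0.000761).

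TGFB3 (chromosome 7, 99133873 to 99162239) was lower still. Its FPKM was 0.00786, 0.0930 and 0.131 in IEC2, then 0, 0.267 and 0.542 in IEC4. IEC12 held 0.278, 0.429 and 0.610 FPKM and AOC held 0.00866, 0 and 0.0336 FPKM. All IEC12 libraries were above all IEC2 and AOC libraries, and they overlapped IEC4. A listed 0 may mean that the estimate failed, so no mean is given for such a group. TGFB3 also stayed below the filter. Without the filter, AOC against IEC12 gave a log2 difference of -0.50 (adjusted p = 0.0153, limma), and IEC12 against IEC2 gave 0.41 (adjusted p = 0.0943).

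**Figure D1:**
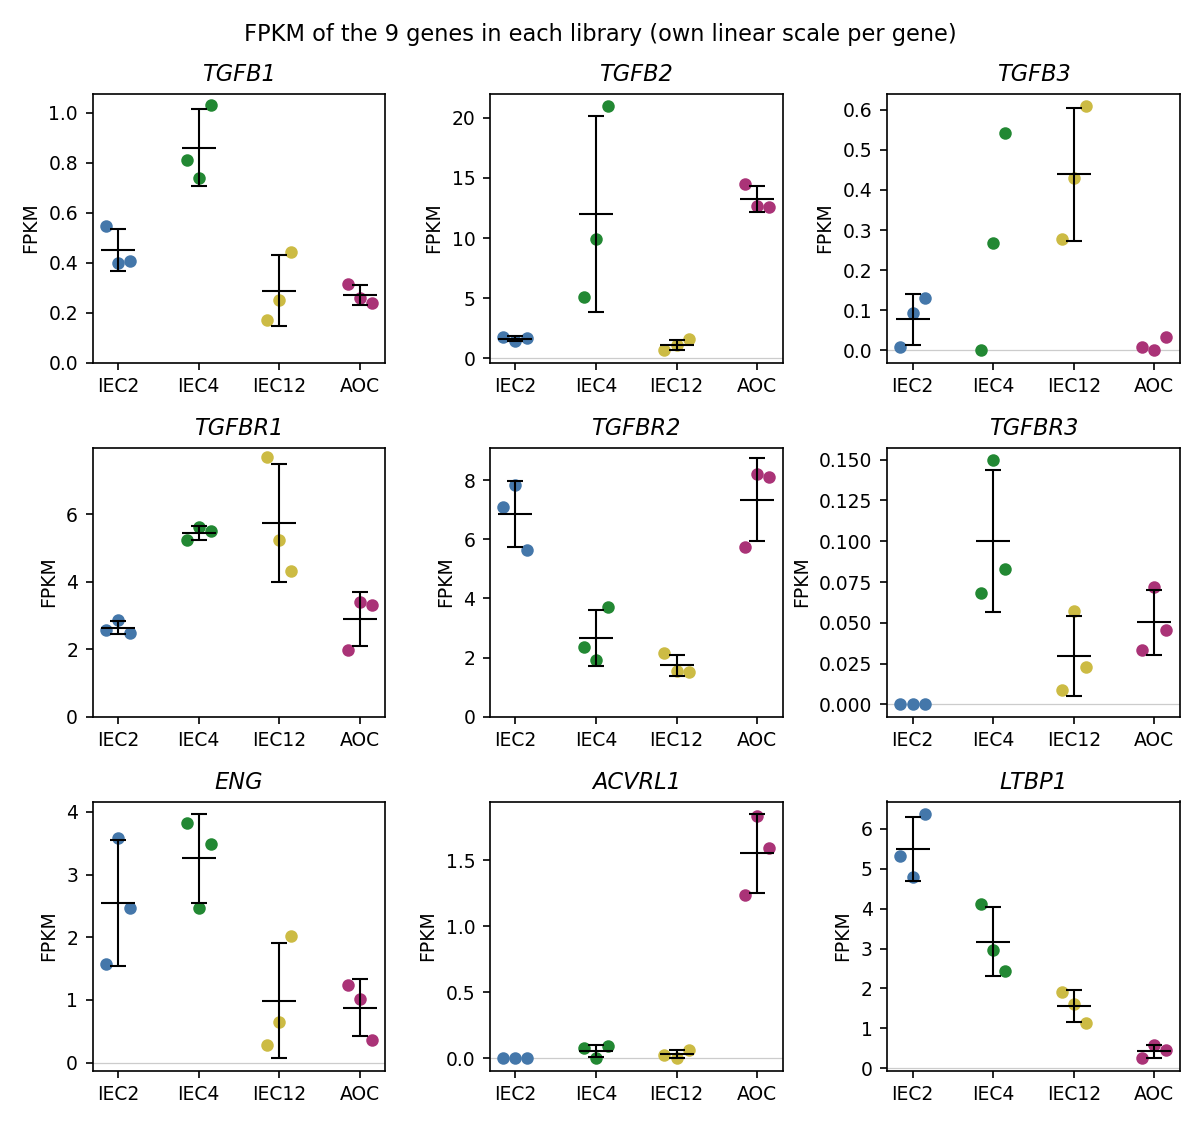
FPKM (vertical axis, linear and separate for each gene) of the 9 genes in IEC2, IEC4, IEC12 and AOC. Points are libraries A, B and C from left to right, and black marks give the mean ± SD of 3 libraries except in groups with a library listed at 0. TGFB2 is high in IEC4 (5.10 to 21.0) and AOC (12.6 to 14.5), ACVRL1 reaches 1 in AOC only, and LTBP1 steps down from IEC2 to AOC without overlap.

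The ligands were also compared as shares of their summed FPKM within a library. Relative to its mean, the share of TGFB2 varied less between replicates than its level in each of the 4 groups. TGFB2 made up 75.6% ± 1.02 (SD, n = 3) of the sum in IEC2, 90.0% ± 3.43 in IEC4, 60.5% ± 0.771 in IEC12 and 97.9% ± 0.0934 in AOC. TGFB1 made up 20.7% ± 2.67 in IEC2, 8.35% ± 4.77 in IEC4, 15.4% ± 1.37 in IEC12 and 1.99% ± 0.129 in AOC. TGFB3 held 24.7, 24.4 and 23.1% in the IEC12 libraries, against 0.336, 4.82 and 5.81% in IEC2, and it was the second ligand in IEC12, where TGFB1 was second in the other groups. No pair of groups overlapped in the share of TGFB2 or of TGFB1. Each such pair gave p = 0.1 in an exact permutation test (two-sided), the smallest p that 3 libraries against 3 allow, or 0.132 after adjustment over 25 tests of shares and ratios. TGFB2 exceeded the next ligand by a factor of 3.69 ± 0.487 in IEC2, 13.3 ± 7.01 in IEC4, 2.52 ± 0.0745 in IEC12 and 49.3 ± 3.22 in AOC. Summed over the ligands, FPKM reached 2.17 ± 0.216 in IEC2, 13.1 ± 8.54 in IEC4, 1.84 ± 0.756 in IEC12 and 13.5 ± 1.13 in AOC.

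**Figure D2:**
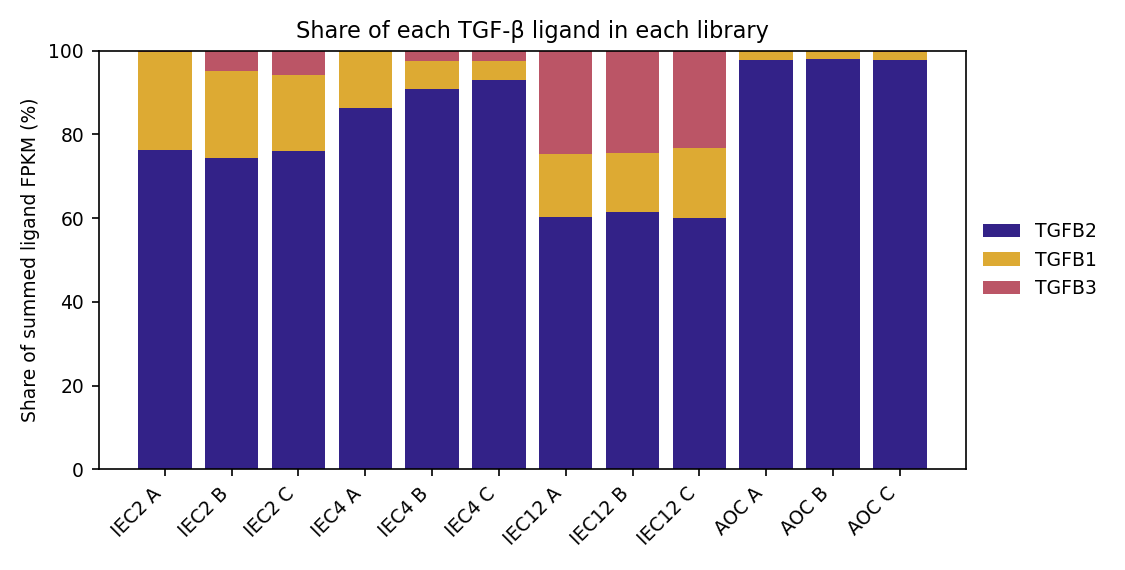
Share of TGFB2, TGFB1 and TGFB3 (colors) in the summed FPKM of the 3 ligands (vertical axis, percent) in each of the 12 libraries (horizontal axis). TGFB2 takes the largest share of every bar, with means from 60.5% in IEC12 to 97.9% in AOC, and TGFB3 takes 23.1 to 24.7% in IEC12.

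Of TGFBR2 and TGFBR1, the higher receptor was TGFBR2 at day 2 and TGFBR1 at day 4. ENG lay between them in IEC2 replicate B, IEC4 replicates A and B and IEC12 replicate C. TGFBR2 (chromosome 13, 16784370 to 16875828), the type II receptor that binds ligand first, was at 7.08, 7.84 and 5.63 FPKM in IEC2. It was at 2.36, 1.92 and 3.72 FPKM in IEC4 and at 2.15, 1.55 and 1.5 FPKM in IEC12. AOC had 5.73, 8.19 and 8.10 FPKM. The libraries of IEC2 and AOC overlapped each other, those of IEC4 and IEC12 overlapped each other, and the first pair lay wholly above the second. TGFBR2 fell by 1.12 ± 0.223 on the log2 scale from IEC2 to IEC4 (adjusted p = 0.00379, limma) and was lower in IEC12 than in IEC2 (log2 fold change -1.52 ± 0.223, adjusted p = 0.000554, limma). The step from IEC4 to IEC12 was -0.40 ± 0.223 (adjusted p = 0.168, limma), and AOC and IEC2 differed by 0.08 ± 0.213 (adjusted p = 0.752, limma). AOC was higher than IEC4 by a log2 fold change of 1.20 ± 0.213 (adjusted p = 0.000366, limma) and higher than IEC12 by 1.60 ± 0.213 (adjusted p = 4.75e-05, limma).

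TGFBR1 (chromosome 1, 240842735 to 240918267), the type I receptor that activates SMAD2 and SMAD3, moved the other way. It was at 2.57, 2.87 and 2.49 FPKM in IEC2 and at 5.23, 5.62 and 5.5 FPKM in IEC4. IEC12 held 7.69, 5.23 and 4.31 FPKM, and AOC held 1.98, 3.4 and 3.30 FPKM. All IEC4 and IEC12 libraries were above all IEC2 and AOC libraries. TGFBR1 rose from IEC2 to IEC4 by 0.83 ± 0.20 on the log2 scale (adjusted p = 0.00999, limma) and was higher in IEC12 than in IEC2 by 0.86 ± 0.20 (adjusted p = 0.0069, limma). Compared with IEC4 and IEC12, AOC was lower, with log2 fold changes of -0.75 ± 0.204 (adjusted p = 0.00636, limma) and -0.78 ± 0.204 (adjusted p = 0.00597, limma). IEC12 and IEC4 differed by 0.03 ± 0.20 (adjusted p = 0.904, limma) and AOC and IEC2 by 0.08 ± 0.204 (adjusted p = 0.764). Some of these TGFBR1 calls depended on how libraries were scaled. With median-of-ratios scaling, the values were 0.60 for IEC4 against IEC2 (adjusted p = 0.0706, limma), -0.33 for AOC against IEC4 (adjusted p = 0.243) and -0.57 for AOC against IEC12 (adjusted p = 0.0571).

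The ratio of TGFBR2 to TGFBR1 within a library does not depend on the scaling of the library. Its log2 was 1.36 ± 0.161 (SD, n = 3) in IEC2, -1.09 ± 0.496 in IEC4, -1.70 ± 0.166 in IEC12 and 1.37 ± 0.143 in AOC. TGFBR2 was therefore the receptor with the highest FPKM in all 3 libraries of IEC2 and of AOC, and TGFBR1 in all 3 libraries of IEC4 and of IEC12. IEC2 did not overlap IEC4 or IEC12, and neither did AOC, with p = 0.1 in each exact permutation test (two-sided; adjusted 0.132). The ratio overlapped between IEC2 and AOC (exact p = 1) and between IEC4 and IEC12 (exact p = 0.2).

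ACVRL1 (chromosome 5, 17267483 to 17284155), the type I receptor of the endothelial ALK1 arm, reached an FPKM of 1 only in AOC. It was at 1.24, 1.83 and 1.59 FPKM in AOC and was listed at 0 in all 3 IEC2 libraries. IEC4 held 0.0755, 0.00534 and 0.0915 FPKM and IEC12 held 0.0278, 0.00536 and 0.0654 FPKM. Every AOC library was far above every IEC library, and IEC4 overlapped IEC12. ACVRL1 passed the filter only through AOC, the group where it is high, so its tests against the IEC groups could not turn out otherwise and no p is given. On the log2(FPKM + 1) scale, AOC exceeded IEC4 by 1.27 ± 0.117 (SE) and IEC12 by 1.30 ± 0.117, and no fold is given against IEC2, where the gene is listed at 0. In AOC the log2 ratio of ACVRL1 to TGFBR1 was -0.88 ± 0.188 (SD, n = 3), so that TGFBR1 remained the higher type I receptor there. The same log2 ratio was -7.36 ± 2.33 in IEC4 and -8.03 ± 1.95 in IEC12, but -5.19 and -5.44 with 0.1 FPKM added to both genes. Of the 12 endothelial markers found, 11 were at 1 FPKM or more in all AOC libraries and their sum was highest there, while KDR was highest in IEC2, where ACVRL1 is listed at 0. Their part was not tested.

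**Figure D3:**
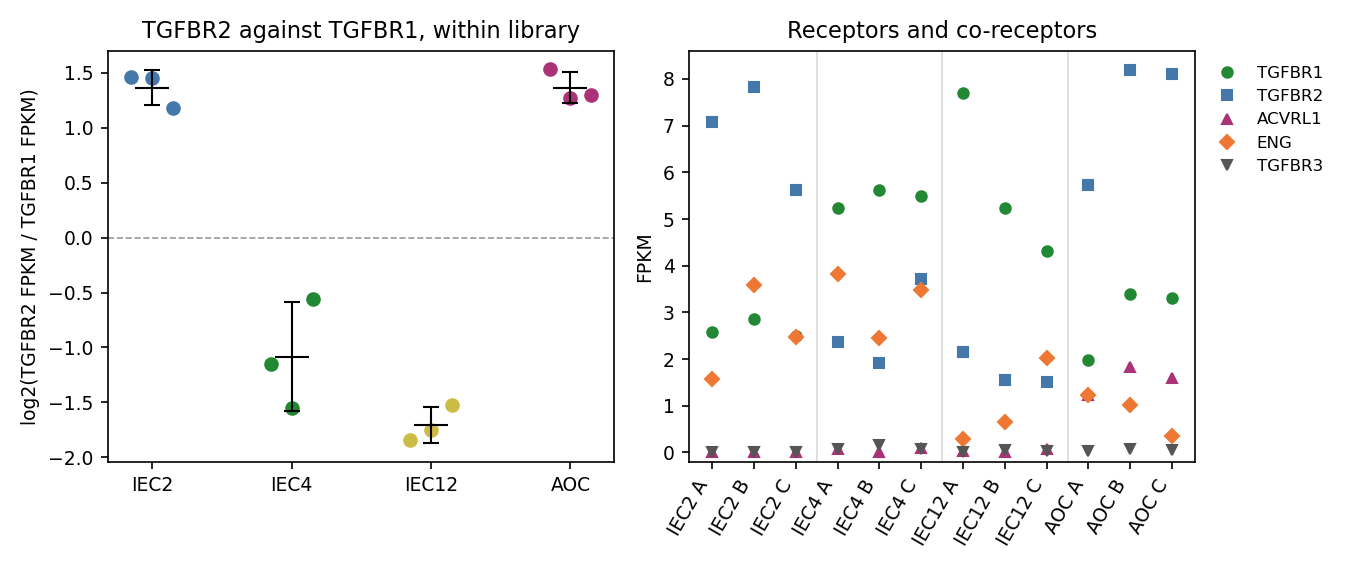
Left, log2 ratio of TGFBR2 to TGFBR1 FPKM within each library (points), with the mean ± SD of 3 libraries (black) and equal levels as a dashed line. Right, FPKM of the 5 receptors and co-receptors in each library. The ratio is above 0 in IEC2 and AOC and below 0 in IEC4 and IEC12, and ACVRL1 (triangles) leaves the baseline in AOC only.

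ENG (chromosome 1, 268309379 to 268343861), a co-receptor and surface glycoprotein commonly used to mark endothelium, was not highest in the endothelial line. It was at 1.58, 3.58 and 2.46 FPKM in IEC2 and at 3.83, 2.46 and 3.48 FPKM in IEC4. IEC12 ranged widely, with 0.278, 0.653 and 2.02 FPKM, and AOC had 1.23, 1.02 and 0.361 FPKM. Every AOC library was below every library of IEC2 and IEC4, and neighbors in the order of means (IEC4, IEC2, IEC12, AOC) all overlapped. ENG was lower in AOC than in IEC4 (log2 fold change -1.20 ± 0.323, adjusted p = 0.00582, limma) and than in IEC2 (-0.91 ± 0.323, adjusted p = 0.0269, limma). It fell by 1.18 ± 0.331 on the log2 scale from IEC4 to IEC12 (adjusted p = 0.0168, limma). Between IEC4 and IEC2 the log2 difference was 0.29 ± 0.331 (adjusted p = 0.516, limma), and between IEC12 and IEC2 it was -0.89 ± 0.331 (adjusted p = 0.0523, limma). AOC and IEC12 differed by -0.02 ± 0.323 (adjusted p = 0.968, limma). The decrease to IEC12 missed the threshold without IEC12 replicate A, IEC12 replicate B or IEC4 replicate A (adjusted p = 0.0514 to 0.0586, limma). The difference of AOC from IEC2 missed it without AOC replicate C, IEC2 replicate B or IEC2 replicate C (adjusted p = 0.0604 to 0.112, limma). The difference of IEC12 from IEC2 passed it without IEC12 replicate C (adjusted p = 0.00791) or IEC2 replicate A (adjusted p = 0.0375) and with either other scaling of libraries (adjusted p = 0.0258 and 0.0355).

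TGFBR3 (chromosome 4, 125109939 to 125310788), the co-receptor that presents TGF-β2, was at 0.150 FPKM or less in every library. It was listed at 0 in all IEC2 libraries and was at 0.0682, 0.150 and 0.0827 FPKM in IEC4. IEC12 held 0.00898, 0.0571 and 0.0230 FPKM and AOC held 0.0335, 0.0720 and 0.0454 FPKM. IEC4, AOC and IEC12 overlapped as neighbors in the order of means. ENG was above TGFBR3 in all 12 libraries, by a log2 ratio of 5.08 ± 0.928 (SD, n = 3) in IEC4, 4.98 ± 1.47 in IEC12 and 4.01 ± 1.12 in AOC, which overlapped (exact permutation test, two-sided, p = 0.2 to 1 for the pairs). TGFBR3 was below the filter, and in the fit without it the log2 difference of IEC4 from IEC2 was 0.14 (adjusted p = 0.0228, limma), against a group listed at 0.

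LTBP1 (chromosome 3, 106300748 to 106724538), which tethers latent TGF-β to the matrix, stepped down through the stages. It was at 5.32, 4.79 and 6.38 FPKM in IEC2 and at 4.12, 2.97 and 2.43 FPKM in IEC4. IEC12 held 1.92, 1.61 and 1.13 FPKM and AOC 0.248, 0.572 and 0.447 FPKM. No group overlapped its neighbor in this order. LTBP1 was lower in IEC12 than in IEC2 (log2 fold change -1.35 ± 0.212, adjusted p = 0.000793, limma), and lower in AOC than in IEC2 (-2.19 ± 0.193, adjusted p = 1.18e-06), IEC4 (-1.54 ± 0.193, adjusted p = 2.41e-05) and IEC12 (-0.84 ± 0.193, adjusted p = 0.00271). The single steps were less firm. The step from IEC2 to IEC4 was -0.65 ± 0.212 (adjusted p = 0.0364, limma) and missed the threshold without IEC4 replicate B or C or without any of the IEC2 replicates A, B and C (adjusted p = 0.0528 to 0.11), with a pseudocount of 0.1 (0.054) and without the filter (0.0621). The step from IEC4 to IEC12 was -0.70 ± 0.212 (adjusted p = 0.0235, limma), and it missed the threshold without IEC12 replicate B or C or IEC4 replicate A or B (adjusted p = 0.0566 to 0.0847) and after median-of-ratios scaling (-0.51, adjusted p = 0.0903). Set against the ligands, the ratio of LTBP1 to the summed ligands was 2.53 ± 0.284 (SD, n = 3) in IEC2 and 0.359 ± 0.304 in IEC4. It was 1.01 ± 0.642 in IEC12 and 0.0320 ± 0.0141 in AOC. This ratio was chosen after the values were seen.

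Counted over the whole group, IEC4 against IEC2 had 2 genes called higher (TGFB2 and TGFBR1) and 2 called lower (TGFBR2 and LTBP1) of 5 tested. Over all 10542 genes tested, 24.8% were called higher and 12.5% lower at the same threshold, an adjusted p under 0.05. For IEC12 against IEC4, 3 of 5 were called lower (TGFB2, ENG and LTBP1) and 0 higher, with 17.3% of all genes higher and 26.9% lower. Without IEC12 replicate B, or without IEC4 replicate A, only TGFB2 was called in that comparison. IEC12 against IEC2 had TGFBR1 higher and TGFBR2 and LTBP1 lower of 5, with 24.2% of all genes higher and 19.3% lower. In the comparisons with AOC, ACVRL1 is left out of the counts because it passed the filter through AOC alone. The shares of all genes set beside them leave such genes out in the same way. AOC against IEC2 had TGFB2 higher and ENG and LTBP1 lower of 5 tested, beside 26.7% higher and 37.1% lower of all 11053 genes. Without AOC replicate C, 2 genes were called there. AOC against IEC4 had TGFBR2 higher and TGFBR1, ENG and LTBP1 lower of 5, beside 22.1% higher and 47.0% lower. AOC against IEC12 had TGFB2 and TGFBR2 higher and TGFBR1 and LTBP1 lower of 5, beside 20.6% higher and 36.8% lower. TGFB2 rose in AOC against IEC2 by a log2 fold change of 2.43 ± 0.356 (adjusted p = 8.62e-05, limma) and against IEC12 by 2.77 ± 0.356 (adjusted p = 3.59e-05). Against IEC4 its log2 difference was 0.32 ± 0.356 (adjusted p = 0.433, limma), but 0.80 without IEC4 replicate C (adjusted p = 0.0174), 0.80 after median-of-ratios scaling (adjusted p = 0.0489) and -0.13 without IEC4 replicate A (adjusted p = 0.703). The comparisons of AOC share its 3 libraries.

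The shares called in each direction shifted with the scaling of libraries. Of all calls, 66.5% were higher in IEC4 against IEC2, and 47.9% were after median-of-ratios scaling, which moved the median log2 fold change of all genes from 0.20 to -0.03. For IEC12 against IEC4, 39.2% of calls were higher, or 53.0% after median-of-ratios scaling and 25.6% with equal FPKM totals, with medians of -0.15, 0.06 and -0.32. Equal totals lowered the share of higher calls from 55.7 to 36.6% for IEC12 against IEC2 and from 41.9 to 31.1% for AOC against IEC2. Median-of-ratios scaling raised it from 32.0 to 50.7% for AOC against IEC4 and from 38.2 to 51.1% for AOC against IEC12. The calls of TGFB2 between IEC stages and of TGFBR2 and LTBP1 in AOC against IEC4 and IEC12 held under both scalings.

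**Figure D4:**
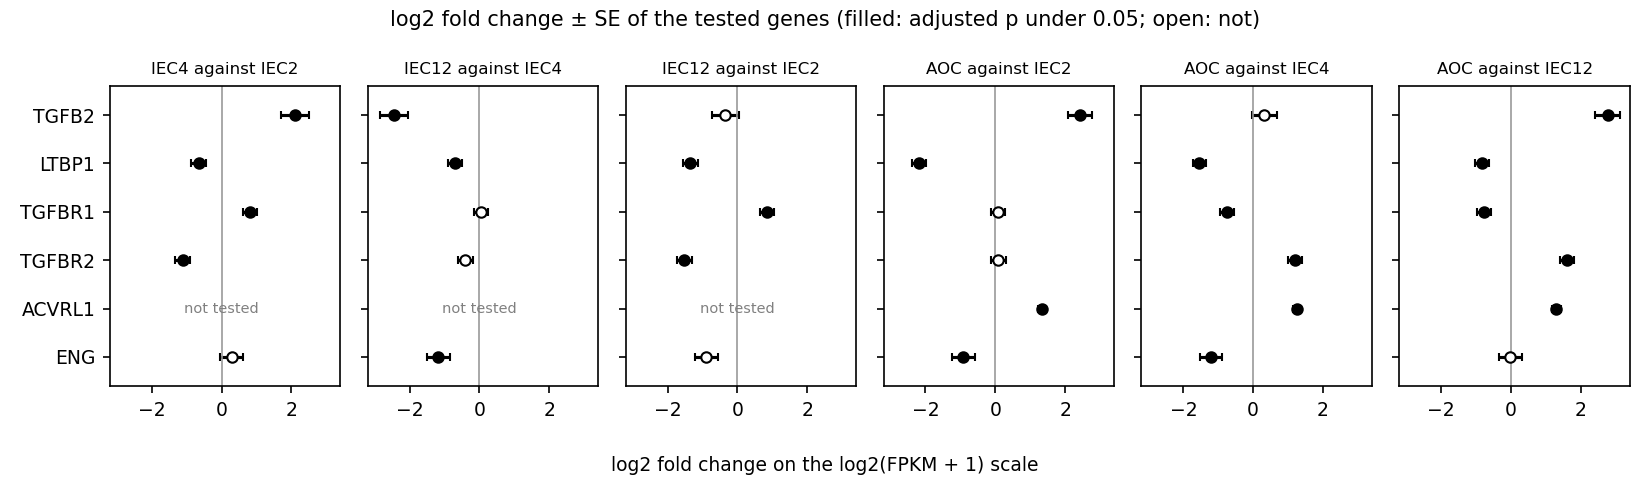
log2 fold change ± SE on the log2(FPKM + 1) scale (horizontal axis) of the 6 genes tested, for 6 comparisons. Filled points have an adjusted p under 0.05 in limma and open points do not. TGFB2 moves by 2.11 up to day 4 and by -2.45 down to day 12, and LTBP1 lies left of 0 in all 6 comparisons. The point of ACVRL1 against IEC2, where it is listed at 0, depends on the 1 added to each FPKM, and ACVRL1 was tested only because AOC is high.

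Other genes of the pathway were counted in 4 lists of 76 genes, of which 71 were found, as partners upstream and downstream of the ligands and receptors. From IEC2 to IEC4, 21 of 48 tested genes were called higher and 6 lower, beside 24.8% and 12.5% of all genes. Their median log2 fold change was 0.60, beside 0.20 over all genes tested. From IEC4 to IEC12, 11 of 48 were higher and 20 lower (17.3% and 26.9% of all genes), with a median of -0.37 beside -0.15. In AOC against IEC12, 22 of 52 were higher and 15 lower (22.4% and 36.2% of all genes), with a median of 0.17 beside -0.21. Some genes reached 1 FPKM in no library of the fit outside 1 of the groups compared, so that the filter fixed their direction. Genes that also reached it in a group of the fit that was not compared were kept. THBS1, BAMBI and FBN2 in AOC against IEC12 are examples, each at 1 FPKM or more in only 1 of these 2 groups. Also kept were THBS1 between IEC stages and TGFBI in AOC against IEC12, which passed the filter only with their high group. Genes that reached 1 FPKM in no other library numbered 4 in each of the first 2 comparisons (ITGB6, FURIN, ACTA2 and COL1A1, all through IEC4). In the last comparison they numbered 3 (ITGB5, ITGB8 and COL1A2, all through AOC). Leaving them aside, 17 of 44 genes were higher and 6 lower from IEC2 to IEC4, against 23.1% and 12.3% of all genes counted in the same way. From IEC4 to IEC12 it was 11 of 44 higher and 16 lower, against 17.2% and 25.2%, and in AOC against IEC12 it was 19 of 49 higher and 15 lower, against 20.6% and 36.8%. All counts of the single lists leave these genes out, except those given for other settings. Without IEC4 replicate C, the median of the pathway genes was 0.33 from IEC2 to IEC4 and -0.03 from IEC4 to IEC12, where 13 of 43 genes were lower and 10 higher. Leaving out any IEC4 replicate also left ITGB6, FURIN, ACTA2 and COL1A1 untested. Without IEC4 replicate A or B, 15 and 14 of 44 genes were lower from IEC4 to IEC12, with medians of -0.17 and -0.19. With equal totals 5 rather than 11 genes were higher from IEC4 to IEC12, and without IEC12 replicate A, IEC12 replicate B or IEC4 replicate B there were 7, 6 and 7. Without IEC4 replicate B, 3 rather than 6 genes were lower from IEC2 to IEC4.

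Genes for storing and activating latent ligand came first in the chain (20 found). From IEC2 to IEC4, 3 of 9 tested were called higher and 1 lower, beside 23.1% and 12.3% of all genes. The largest rise was that of THBS1, whose product thrombospondin activates latent TGF-β (log2 fold change 3.19). Among the IEC libraries outside IEC4, it reached 1 FPKM only in IEC2 replicate A (1.31). It therefore passed the filter only with IEC4, and no p is given for it between IEC stages. The counts of this list between IEC stages include it. THBS1 was at 7.45, 6.67 and 70.1 FPKM in the IEC4 libraries, and its log2 fold change without replicate C was 2.14. ITGB6, a subunit of the epithelial integrin that activates TGF-β, was listed at 0 in all IEC2, IEC12 and AOC libraries and was at 3.83, 2.17 and 27.1 FPKM in IEC4. It was tested only because of those 3 IEC4 libraries, so no p is given. ITGB1, the integrin β1 subunit, was lower (-0.55, adjusted p = 0.0242, limma), a call lost without IEC4 replicate A, IEC4 replicate B or IEC2 replicate C. Without any one of the IEC4 replicates the genes of this list called higher numbered 2. From IEC4 to IEC12, 2 of 9 were lower and 1 higher, near the 25.2% and 17.2% of all genes. THBS1 fell by 3.86 on the log2 scale, and FBN2, a microfibril protein to which latent complexes bind, rose by 0.77 (adjusted p = 0.0102, limma). THBS1 fell by 2.81 without IEC4 replicate C. In AOC against IEC12, 4 of 11 were higher and 2 lower, beside 20.6% and 36.8% of all genes. THBS1 was higher by 7.88 (adjusted p = 8.11e-07, limma), while FBN2 (-4.23, adjusted p = 2.76e-09) and the matrix protease MMP2 (-1.30, adjusted p = 0.000111) were lower. The integrin subunit ITGB5 was at 5.34, 6.86 and 5.36 FPKM in AOC and at most 0.896 FPKM in the other libraries, and was tested only through AOC. Without AOC replicate B or C, 3 genes were higher there.

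Receptor SMADs and their regulators (18 of 19 found) included both inhibitors and transducers. From IEC2 to IEC4, 5 of 13 tested were called higher and 1 lower, beside 23.1% and 12.3% of all genes. SMAD6, an inhibitory SMAD, rose by 2.11 on the log2 scale (adjusted p = 0.00151, limma) and PMEPA1, a feedback inhibitor that binds receptor SMADs, by 1.62 (adjusted p = 0.0027). SMAD3 had a log2 fold change of -0.48 (adjusted p = 0.0441, limma), and the call was kept in 4 of 13 alternatives. The median of the list was 0.12, but -0.10 after median-of-ratios scaling and -0.05 without IEC4 replicate C. From IEC4 to IEC12, 6 of 13 were higher and 3 lower, beside 17.2% and 25.2% of all genes. BAMBI, a pseudoreceptor that blocks TGF-β signals, rose by 3.10 (adjusted p = 4.77e-05, limma) from 2.78, 4.29 and 5.31 FPKM in IEC4 to 54.3, 49.4 and 27.6 FPKM in IEC12. CAV1, the caveolar coat protein, rose by 0.87 (adjusted p = 0.0326, limma), a call kept in 5 of 13 alternatives. The corepressor TGIF1 (-1.61, adjusted p = 0.000301, limma) and PMEPA1 (-1.45, adjusted p = 0.00422) were lower. The direction of this list depended on the scaling, since 1 gene was higher and 3 lower with equal totals. Without IEC12 replicate A, IEC12 replicate B or IEC4 replicate B, 3, 2 and 3 genes were higher. In AOC against IEC12, 3 of 13 were higher and 5 lower, which is near the shares of all genes (20.6% and 36.8%). CAV1 (2.64, adjusted p = 3.78e-06, limma) and TGIF1 (0.92, adjusted p = 0.00104) were higher, and BAMBI (-4.87, adjusted p = 1.56e-08) and SMAD6 (-1.44, adjusted p = 0.00224) were lower.

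Of the genes known as targets of SMAD2 and SMAD3 (17 of 20 found), 9 of 11 tested were called lower and 0 higher from IEC4 to IEC12, beside 25.2% and 17.2% of all genes. Their median log2 fold change was -1.31, beside -0.13 over all genes counted in the same way. SNAI2, a transcription factor of this list, lay the other way, at 0.584, 1.22 and 1.21 FPKM in IEC4 and 1.86, 1.64 and 1.45 FPKM in IEC12 (log2 fold change 0.42, adjusted p = 0.102, limma). With ACTA2 and COL1A1, whose fall was fixed by the filter, 11 of 13 were lower and the median was -1.66. The cell cycle inhibitor CDKN1A fell by 2.63 (adjusted p = 0.00188, limma). That count was 11 lower and 0 higher under both other scalings as well, and 8 of 11 tested without IEC4 replicate C, where the median was -0.96. It was 8 of 13 without IEC12 replicate A or IEC12 replicate B, which still holds ACTA2 and COL1A1, and 8 of 17 without the filter. From IEC2 to IEC4, 3 of 11 were higher and 2 lower, beside 23.1% and 12.3% of all genes, with a median of 1.16. With ACTA2 and COL1A1 the median was 1.38, or 0.70 without IEC4 replicate C. CDKN2B, another cell cycle inhibitor, rose by 2.25 (adjusted p = 0.00116, limma) and the tropomyosin TPM1 by 2.14 (adjusted p = 0.000228). CCN2, a matricellular protein, fell by 4.08 (adjusted p = 0.000222, limma), and SNAI2 fell by 1.40 (adjusted p = 0.000483). In AOC against IEC12, 9 of 14 were higher and 1 lower, beside 20.6% and 36.8% of all genes. Their median was 1.75, beside -0.24 over all genes counted in the same way. The 9 include TGFBI, which outside AOC reached 1 FPKM only in IEC4 replicates B and C (1.15 and 2.46). It passed the filter only with AOC. CCN2 was higher by 6.06 (adjusted p = 3.78e-07, limma), while SNAI2 was lower (-1.15, adjusted p = 8.21e-05). CCN2 was at 137, 102 and 114 FPKM in IEC2, 2.89, 3.57 and 18.0 in IEC4, 2.78, 2.84 and 3.22 in IEC12 and 227 to 310 in AOC. The genes ACTA2, TAGLN, COL1A1 and COL1A2 of this list are also mesenchymal markers. The mesenchymal marker sum was 50.2 to 63.4 FPKM in IEC4 and 61.5 to 79.6 in IEC12, which overlapped, and 22.9 to 36.4 in AOC. COL3A1, a collagen outside the target list, carried most of it in the IEC groups, with means of 45.6 FPKM in IEC4, 70.8 in IEC12 and 5.56 in AOC. Other markers went with the target list. COL1A1 averaged 5.59 FPKM in IEC4 and 0.0595 in IEC12, and ACTA2 3.11 in IEC4, 0.0874 in IEC12 and 7.49 in AOC, while COL1A2 averaged 0.521 in IEC12 and 14.0 in AOC. The epithelial marker sum was lower in all IEC12 than in all IEC4 libraries, as given above. The part of either marker list was not tested.

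Partners and targets of the ALK1 arm (16 of 17 found) were called in both directions. From IEC2 to IEC4, 6 of 11 tested were higher and 2 lower, beside 23.1% and 12.3% of all genes. ID3 and ID2, inhibitors of helix-loop-helix factors and targets of SMAD1, SMAD5 and SMAD9, rose by 4.59 (adjusted p = 3.27e-06, limma) and 3.83 (adjusted p = 8.51e-06). SMAD1 itself was lower (-1.12, adjusted p = 0.000374, limma), as was the protease ADAMTS1 (-0.89, adjusted p = 0.0498), whose call was kept in 6 of 13 alternatives. BMP4 was in the medium of IEC4 and not of IEC2, and its part cannot be told apart from the stage. Without IEC4 replicate A, 4 genes were higher. From IEC4 to IEC12, 4 of 11 were higher and 2 lower, beside 17.2% and 25.2%, with ID3 (2.14, adjusted p = 0.000217, limma) and the transcription factor HEY1 (1.26, adjusted p = 0.00714) higher. EDN1, which encodes endothelin, fell by 1.23 (adjusted p = 0.00445, limma), and SMAD1 had -0.45 (adjusted p = 0.0319), a call kept in 5 of 13 alternatives. In AOC, where ACVRL1 was highest, 3 of 11 were higher than in IEC12 and 7 lower, beside 20.6% and 36.8% of all genes. EDN1 (4.51, adjusted p = 1.89e-08, limma) and HEY2 (2.98, adjusted p = 1.46e-06) were higher, and ID2 (-3.07, adjusted p = 4.58e-07) and SMAD9 (-2.69, adjusted p = 1.44e-07) were lower.

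**Figure D5:**
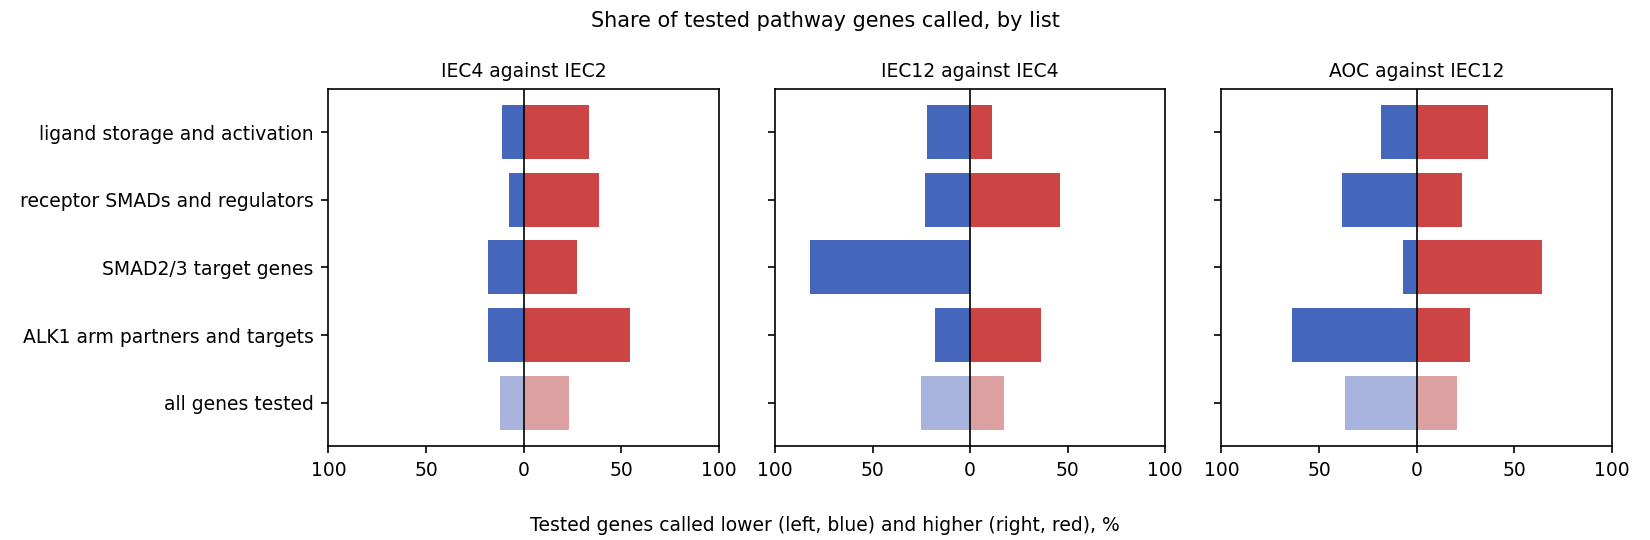
Percent of tested genes called lower (blue, left of 0) and higher (red, right of 0) by limma at an adjusted p under 0.05, for 4 pathway lists and for all genes tested (pale bars), in 3 comparisons. Genes that reached 1 FPKM in no library of the fit outside 1 of the groups compared are left out. The SMAD2 and SMAD3 targets hold 9 lower and 0 higher genes of 11 from IEC4 to IEC12, and 9 higher and 1 lower of 14 in AOC against IEC12. TGFBI, among the 9 higher, passed the filter only with AOC.

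Over the 12 libraries, the genes whose log2(FPKM + 1) followed each of the 9 genes most closely were ranked by Pearson r, as a description over 4 groups of 3 libraries. For TGFB2 they were LRATD2 (r = 0.987), BMP4 (r = 0.986), a related ligand, and TGFBI (r = 0.977), a matrix protein of the SMAD2 and SMAD3 target list. BMP4 averaged 7.61 FPKM in IEC2, 29.6 in IEC4, 4.92 in IEC12 and 41.0 in AOC. For TGFBR2 they were CCN2 (r = 0.965) and SMAD1 (r = 0.950), both of the pathway lists, and FAM177A1 (r = 0.944). SMAD1 averaged 21.0 FPKM in IEC2, 9.15 in IEC4, 6.46 in IEC12 and 21.0 in AOC. TGFBR1 was followed by PBRM1 (r = 0.956), ATP2B1 (r = 0.952) and SENP6 (r = 0.940). For ACVRL1 the closest were PRKCH (r = 0.996), PTPMT1 (r = 0.996) and FLRT2 (r = 0.995), which all averaged over 5 FPKM in AOC and at most 0.0714 in any IEC group. LTBP1 was matched by PEX5L (r = 0.984), MED23 (r = 0.983) and COPG2 (r = 0.973). For ENG they were LYPLA2 (r = 0.975), COX10 (r = 0.973) and HTRA2 (r = 0.969). The 3 genes under the filter had TUBB4A (r = 0.980), DGKA (r = 0.964) and RAB25 (r = 0.957) for TGFB1, PARD6A (r = 0.925), CNPY4 (r = 0.919) and COQ7 (r = 0.914) for TGFB3, and PROSER2 (r = 0.899), CREBRF (r = 0.895) and DNAJB11 (r = 0.888) for TGFBR3. Among the 9 genes themselves, r was highest between ENG and TGFB1 (0.810) and lowest between LTBP1 and ACVRL1 (-0.790), followed by TGFBR2 and TGFBR1 (-0.758). Libraries of a group share their stage or cell line, so these points are not independent.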

How the data were processed

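RNA of 12 libraries (AOC, IEC2, IEC4 and IEC12, 3 biological replicates each) was amplified by the Smart-Seq2 protocol and sequenced. The authors deposited 1 FPKM value per gene and library. Per the submitters' processing notes, Bowtie2 2.2.3, TopHat2 2.0.12, Cufflinks 2.2.1 and the build susScr11 were used; the annotation version is not given in the sources used here. No reads or counts were used here. Groups and replicate letters were taken from the sample titles. Symbols and positions came from reference tables (RefSeq, Sscrofa11.1), and 71.1% of identifiers had a symbol.

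limma 3.58.1 (R 4.3.3, with a variance trend on mean expression) was applied to log2(FPKM + 1). A gene was tested where 3 or more libraries of the fit had 1 FPKM or more. Contrasts between IEC stages used the 9 IEC libraries, and contrasts with AOC all 12. Calls needed a Benjamini-Hochberg adjusted p under 0.05 over all genes tested. The stricter limits of the study (p and q under 0.001, with log2 changes beyond 3 either way) were an alternative. Shares and ratios within a library were compared by exact permutation tests (two-sided) in SciPy 1.17.1. Plots were made in matplotlib 3.10.9. The limma fit was tested on simulated data. Nothing beyond the replicate letters ties libraries across groups, so p-values measure the spread between these samples, which may be partly technical.

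The 9 genes, the pathway and marker lists and the tests were chosen with earlier results of these data known. Genes named are the 9 members and the 3 genes with the highest r to each. From each marker list, the 2 with the highest mean FPKM are named. Up to 2 called genes per direction, list and comparison with the largest fold change are named as well. Other genes named beside them (CDH1, ESRP1, KDR, PTPRC, ITGB8, COL1A1, COL1A2, ACTA2, TAGLN and FURIN) were chosen after their values were seen. A gene that this rule also names is not reported here. FPKM holds no read number, so no counting interval is given. Alternatives were a pseudocount of 0.1, no filter, only the groups compared, a replicate block, 2 other scalings, a variance not tied to expression, the limits of the study and each replicate left out. After the data were seen, lists were also counted without genes that reached 1 FPKM in no library of the fit outside 1 of the groups compared.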

Additional observations from a re-analysis of the deposited data

How the results depend on the processing

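Under the limits of the study, 0 of the 9 genes (5 tested between IEC stages, 6 with AOC) were called in any of the 6 comparisons. The pathway lists kept 3 called genes of 48 for IEC4 against IEC2, 1 of 48 for IEC12 against IEC4 and 8 of 52 for AOC against IEC12. Over all genes tested, 124 of 10542, 99 of 10542 and 487 of 11053 passed these limits. The 8 include COL1A2, which was tested only through AOC. Between IEC12 and IEC4, 1 to 3 of the 9 genes were called with 1 replicate left out. Between AOC and IEC2, 2 or 3 were called when an AOC replicate was dropped, which leaves ACVRL1 untested. Dropping an IEC2 replicate gave 3 or 4, but these counts include ACVRL1, whose call was fixed by the filter. Without genes that reached 1 FPKM in no library of the fit outside 1 of the groups compared, 3 or 4 of the 9 genes were called in each comparison. The pathway genes called then numbered 23, 27 and 34, and this choice was made after seeing the data. Fold changes near 0 turned sign, none of them past the threshold. With equal totals TGFBR1 went to -0.15 (IEC12 against IEC4) and -0.17 (AOC against IEC2), and TGFBR2 to -0.21 (AOC against IEC2). ENG in AOC against IEC12 went to 0.064 with a pseudocount of 0.1 and 0.12 with median-of-ratios scaling. With 1 replicate left out these ranged from -0.17 to 0.19, from -0.023 to 0.26, from -0.033 to 0.23 and, for ENG, from -0.29 to 0.33, and TGFB2 in AOC against IEC4 ranged from -0.13 to 0.80. Adding 0.1 FPKM before shares and ratios were taken gave a TGFB1 share of 18.2% in IEC12 and 2.68% in AOC, a TGFB2 share of 70.5% in IEC2, 56.4% in IEC12 and 96.5% in AOC, and a TGFB3 share of 7.26% in IEC2 and 25.5% in IEC12. It gave a log2 ratio of ACVRL1 to TGFBR1 of -5.44 in IEC12, and of ENG to TGFBR3 of 4.07 in IEC4, 2.72 in IEC12 and 2.56 in AOC. The cause was not tested. In leaving out an AOC replicate, ACVRL1 no longer reached the filter, since only those 3 libraries held it above 1 FPKM. Most libraries with the same letter did not deviate together (r from -0.514 to 0.246, with 2 of 18 pairs over 0.1), so the letters were not taken as pairs. Both pairs over 0.1 were of IEC2 and IEC12 (0.246 for A and 0.201 for C). With a replicate block, TGFB2 in IEC4 against IEC2 kept its log2 fold change of 2.11 (adjusted p = 0.00223, limma), no call of the 9 genes changed, and the called pathway genes numbered 27, 28 and 36. Unknown depth and 3 replicates limit what can be said of TGFB1, TGFB3 and TGFBR3, which lie mostly under 1 FPKM.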
